A study of Mus musculus with 2 samples.

Results

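A set of 10 genes that handle or respond to excess glucose was followed through the cell classes of the mouse retina, in diabetic and control animals. They were taken by symbol from the gene list of the count tables, 10 of 32285 genes, and all 10 were found. The retinas came from mice on the C57BLKS background at 13 weeks of age. One group was homozygous for the db mutation of the leptin receptor gene Lepr (db/db), a model of obesity and type 2 diabetes, and the other carried wild-type Lepr alleles (WT, also described as m/m in the design text). Each genotype was represented by 1 droplet library made with the 10x Genomics 3' chemistry from the retinas of 2 untreated mice, and cells cannot be assigned to a mouse. With 1 library per genotype there is no test between genotypes. The 95% intervals given cover counting error and nothing else: how much 2 mice or 2 tissue preparations vary is not in them.

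When glucose is plentiful, part of it leaves glycolysis by side routes. In the polyol pathway, aldose reductase turns glucose into sorbitol, sorbitol dehydrogenase turns sorbitol into fructose, and ketohexokinase phosphorylates fructose. The hexosamine pathway makes UDP-GlcNAc, the sugar donor with which O-GlcNAc transferase modifies serines and threonines of intracellular proteins, and O-GlcNAcase takes the sugar off again. Methylglyoxal, a reactive by-product of glycolysis that glycates proteins, is cleared by the glyoxalase pair, and thioredoxin-interacting protein restrains glucose uptake and is itself induced by glucose. These routes have been studied for decades in the diabetic retina.

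The db/db library held 11083 barcodes and 33742189 UMIs (unique molecular identifiers, counts of captured RNA molecules), and the WT library 10308 barcodes and 35642274 UMIs. Both barcode numbers exceed the about 3000 cells targeted and the about 6000 loaded per channel, per the labels. Whether several channels were merged into a library is not stated. After filtering, 10963 db/db and 10230 WT cells remained, with medians of 2051 and 2314 UMIs per cell, and 26 barcodes occurred in both libraries. Cells were sorted into classes by marker gates. These gave 9502 db/db and 8303 WT rod-like cells, 338 and 342 cone-like, 296 and 370 bipolar-like, and 121 and 185 Muller glia-like cells. The names rest on these gates and are used below without the suffix. Smaller classes were microglia or macrophage-like cells (42 and 43), amacrine-like cells (19 and 61) and erythroid-like cells (37 and 21). Between 9 of 11 and all of a class's markers were at least at 2 times their level in the other cells. The cells were picked by these same markers, so this describes the gates and is no separate test of the names. None of the 10 genes was among the markers. Of the 4 largest classes, Muller glia differed most in median depth, with 2453 UMIs per db/db cell and 3742 per WT cell. Microglia or macrophages had medians of 4585 and 2191 UMIs, and erythroid cells 10124 and 5078. Lepr itself had 6 UMIs in each library, and a 3' count does not read the db mutation, which alters splicing.

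Levels are UMIs of a gene per 1000000 UMIs of a class in a library (CPM), and a positive log2 ratio means a higher level in db/db. Ratios were taken in classes that held 50 cells or more on both sides, and a gene counted as measured in a class with at least 50 UMIs over both libraries. In rods all 10 genes were measured, 8 of them higher and 2 lower in db/db, and 1, Txnip, was past the fold limit used here, at least 25% higher or 20% lower. Of all 12049 genes measured in rods, 55.8% were higher in db/db, 14.3% lay past that limit in either direction and 7.29% in the higher direction. In cones 1 of 7 measured genes was past the limit (Fn3k, higher), against 22% of 7102 genes. In bipolar cells it was 1 of 7 (Gfpt1, higher), against 28.3% of 6924 genes, and in Muller glia 2 of 6 (Gfpt1 and Txnip, both lower), against 33.5% of 4476 genes. The median log2 ratio of the measured members was 0.05 in rods, 0.17 in cones, 0.13 in bipolar cells and -0.03 in Muller glia, beside 0.02, 0.00, -0.01 and 0.01 for all measured genes. The counting interval lay above 0 for 2 of the 10 genes in rods and below 0 for 1, against 20.6% and 14.4% of all measured genes. It lay above 0 for 2 of 7 in cones, 0 of 7 in bipolar cells and 1 of 6 in Muller glia, against 4.24%, 5.1% and 5.34%. It lay below 0 for 0 members in these 3 classes, against 3.59% of all measured genes in cones, 5.68% in bipolar cells and 5.12% in Muller glia. The 10 genes thus passed the limit about as often as genes at large or less often, and the differences described next are of single genes.

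**Figure D1:**
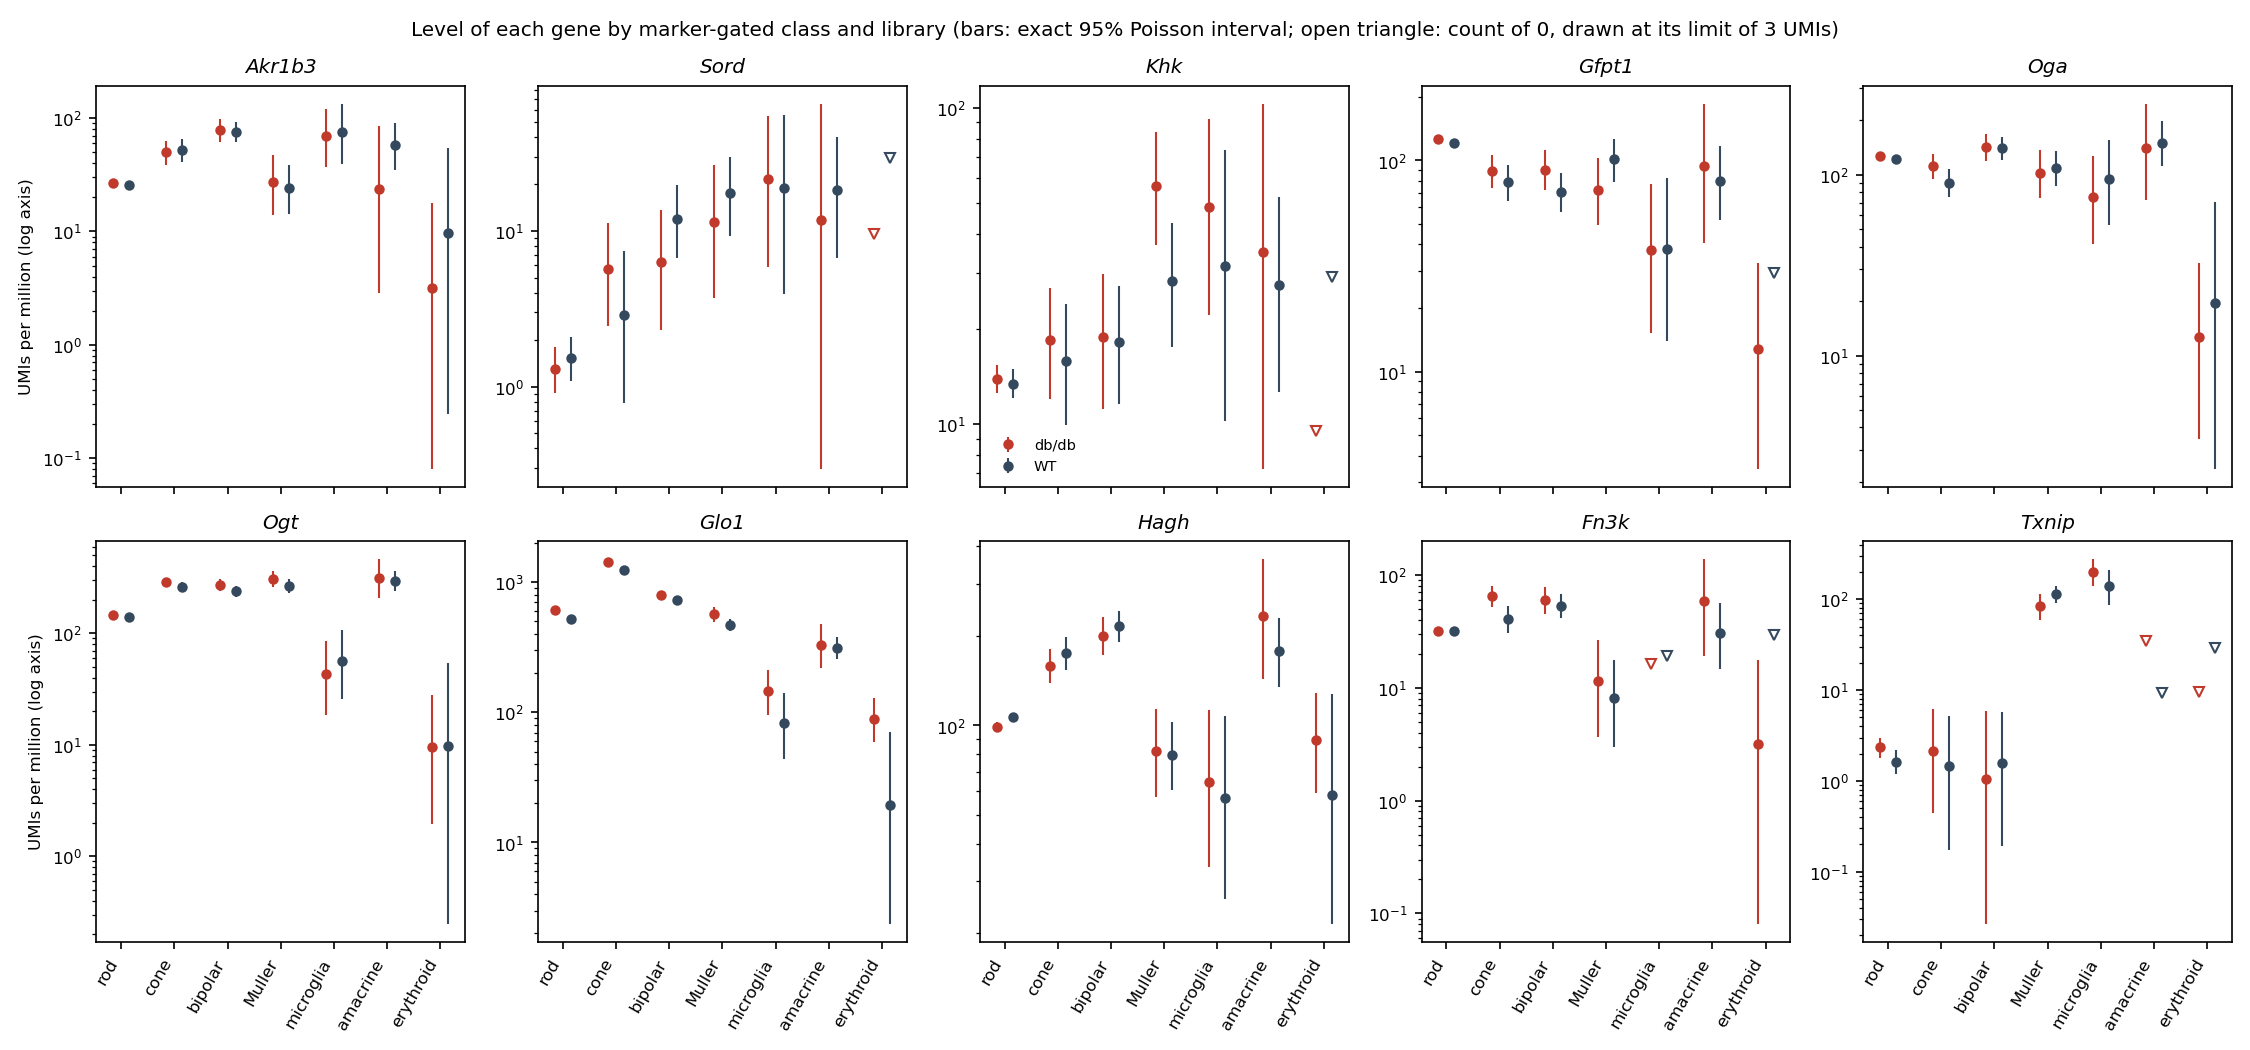
Level of each of the 10 genes (CPM, log axis) in 7 cell classes, db/db (red) left of WT (dark blue), with exact 95% Poisson intervals for counting error and open triangles at the 3-UMI limit where the count was 0. Glo1 peaks in cones (1431 CPM in db/db, 1239 in WT), Gfpt1 in rods (126 and 121), and Txnip in microglia or macrophages (199 and 139) and Muller glia (84.1 and 113).

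Among the polyol genes, none differed between the genotypes beyond counting error in a class where it was measured. Akr1b3 (ENSMUSG00000001642; GRCm38 chromosome 6, 34302434 to 34317478, minus strand) encodes mouse aldose reductase. It had 724 UMIs in db/db rods and 670 in WT rods, or 26.9 and 25.5 CPM, a log2 ratio of 0.08 (-0.08 to 0.23). In cones it was at 49.7 CPM in db/db and 52.0 CPM in WT, and in bipolar cells at 78.8 and 75.4 CPM. The rod level was thus the lower one in both libraries: bipolar cells stood 2.93-fold above rods in db/db and 2.96-fold in WT, with counting intervals that left out equality. Microglia or macrophages, at 70.0 CPM in db/db and 75.8 CPM in WT from 13 and 12 UMIs, did not differ from bipolar cells or cones beyond counting error. Muller glia, with 12 db/db and 18 WT UMIs, stood at 27.3 and 24.3 CPM, close to the rods. Of its relatives in the same gene family, Akr1b7 had no UMI in any of the 7 classes, while Akr1b10 had 12 UMIs in db/db Muller glia and 21 in WT Muller glia, 27.3 and 28.3 CPM.

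Sord (ENSMUSG00000027227; chromosome 2, 122234749 to 122265340, plus strand), sorbitol dehydrogenase, was sparse, with 172 UMIs over both libraries and all cells. Rods gave 35 UMIs in db/db and 40 in WT, a log2 ratio of -0.23 (-0.92 to 0.47) that the depth cannot tell from 0. At 1.30 CPM in db/db and 1.52 CPM in WT, rods were lowest among the 6 neural, glial and microglial classes. Muller glia were at 11.4 CPM in db/db and 17.5 CPM in WT, 8.74-fold and 11.5-fold above rods, on 5 and 13 UMIs.

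Khk (ENSMUSG00000029162; chromosome 5, 30921431 to 30931248, plus strand), ketohexokinase, was at 14.0 CPM in db/db rods and 13.5 CPM in WT rods, a log2 ratio of 0.05 (-0.16 to 0.27). Its levels were higher in Muller glia, where 25 UMIs in db/db cells and 21 in WT cells correspond to 56.8 and 28.3 CPM. That is a log2 ratio of 1.01 (0.11 to 1.91), but the 46 UMIs are below the minimum of 50 and the value is given for completeness. After thinning every cell to 1000 UMIs, 5 of 82 db/db and 6 of 142 WT Muller glia held a Khk UMI, 6.10% (2.01 to 13.7%) and 4.23% (1.57 to 8.97%), with wide and overlapping intervals. The thinned shares in rods were 1.47% and 1.52%; unthinned, they were 19.8% of db/db and 10.3% of WT Muller glia, at medians of 2453 and 3742 UMIs.

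In rods, the 3 hexosamine and O-GlcNAc genes differed between the genotypes by 5.92% or less, and Gfpt1 differed more in smaller classes. Gfpt1 (ENSMUSG00000029992; chromosome 6, 87042846 to 87092197, plus strand) encodes glutamine:fructose-6-phosphate amidotransferase, the rate-limiting step of the route. It was at 126 CPM in db/db rods and 121 CPM in WT rods from 3388 and 3191 UMIs, a log2 ratio of 0.05 (-0.02 to 0.12). Gfpt1 was the member with its highest level in rods: cones had 88.8 CPM in db/db and 78.7 CPM in WT, and microglia or macrophages 37.7 and 37.9 CPM. Rods did not differ beyond counting error from Muller glia in WT or from amacrine cells (93.7 CPM, 8 UMIs) in db/db. In bipolar cells Gfpt1 was at 90.3 CPM in db/db (86 UMIs) and 70.7 CPM in WT (89 UMIs), a log2 ratio of 0.35 (-0.09 to 0.80). In Muller glia the direction was the opposite, with 72.7 CPM in db/db (32 UMIs) and 101 CPM in WT (75 UMIs), a log2 ratio of -0.48 (-1.12 to 0.14). Both intervals include 0. Over 13 other settings the Muller glia value stayed below 0, from -1.11 in cells thinned to 1000 UMIs to -0.04 with stricter marker gates.

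Ogt (ENSMUSG00000034160; X chromosome, 101640060 to 101684351, plus strand), O-GlcNAc transferase, was at 148 CPM in db/db rods and 139 CPM in WT rods, from 3973 and 3665 UMIs. The log2 ratio of 0.08 (0.02 to 0.15) left out 0 but amounts to 5.92% more. All 4 compared classes were on the higher side in db/db, with log2 ratios of 0.13 (-0.07 to 0.34) in cones, 0.20 (-0.05 to 0.44) in bipolar cells and 0.20 (-0.12 to 0.53) in Muller glia. The cone value was on the lower side, at -0.14 when cells were thinned to equal depth and -0.03 with stricter gates. By class, Muller glia and the neurons other than rods held the most Ogt: cones were at 287 CPM in db/db and 261 CPM in WT, bipolar cells at 272 and 237 CPM, and Muller glia at 309 and 268 CPM. These classes and amacrine cells (316 and 297 CPM) did not differ from their neighbours in the order beyond counting error, whereas bipolar cells were above rods in both libraries. Microglia or macrophages, at 43.1 CPM in db/db and 56.8 CPM in WT, were below rods.

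Oga (ENSMUSG00000025220; chromosome 19, 45750259 to 45783837, minus strand), O-GlcNAcase, which reverses the Ogt reaction, had 3431 UMIs in db/db rods and 3233 in WT rods. The levels were 127 and 123 CPM, a log2 ratio of 0.05 (-0.02 to 0.12). Outside erythroid cells its levels ran from 75.4 CPM in db/db microglia or macrophages to 150 CPM in WT amacrine cells. Neighbours in the order of classes did not differ beyond counting error, except that microglia or macrophages were above erythroid cells in both libraries. Classes further apart in that order did differ: bipolar cells were above cones beyond counting error, 1.28-fold in db/db and 1.55-fold in WT. Rods were above cones beyond counting error in WT, 1.36-fold, but not in db/db, 1.14-fold. In cones Oga was at 112 CPM in db/db and 90.2 CPM in WT, a log2 ratio of 0.31 (-0.04 to 0.66) that was -0.24 in thinned cells.

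Of the 10 genes, Glo1 gave the difference best separated from counting error. Glo1 (ENSMUSG00000024026; chromosome 17, 30584936 to 30626871, minus strand) encodes glyoxalase 1, which converts the adduct that methylglyoxal forms with glutathione. Rods held 16520 UMIs in db/db and 13670 in WT, or 613 CPM (604 to 623) and 519 CPM (511 to 528), a log2 ratio of 0.24 (0.21 to 0.27). Cones were at 1431 CPM in db/db and 1239 CPM in WT, a log2 ratio of 0.21 (0.11 to 0.30). In Muller glia 249 db/db and 350 WT UMIs gave 566 and 472 CPM, a log2 ratio of 0.26 (0.02 to 0.50). Bipolar cells were at 803 CPM in db/db and 735 CPM in WT, a log2 ratio of 0.13 (-0.01 to 0.27) that includes 0. The direction was thus higher in db/db in all 4 compared classes, by 18.1% in rods, and by less than 25% in each.

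The Glo1 difference was set against other well-counted genes, a comparison chosen after its values were seen. Among genes with at least 500 UMIs in the class, 6.40% of 8684 in rods and 6.56% of 945 in cones were at or above the log2 ratio of Glo1. In bipolar cells the share was 18.8% of 756 genes, and in Muller glia 12.3% of 261. A ratio of that size was therefore in the upper tail of rods and cones, and 556 of the rod genes were in that tail. The share of rods with a Glo1 UMI after thinning was 45.4% (44.3 to 46.4%) of 8312 db/db cells and 39.4% (38.2 to 40.6%) of 6692 WT cells. Before thinning it was 67.6% at a median of 1944 UMIs per db/db rod, and 62.2% at 2210 UMIs per WT rod. Among erythroid cells, the class with the fewest Glo1 UMIs, 5 of 36 db/db and 0 of 21 WT cells held a Glo1 UMI after thinning, where a count of 0 allows up to 14.3%, at unthinned medians of 10124 and 5078 UMIs.

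**Figure D2:**
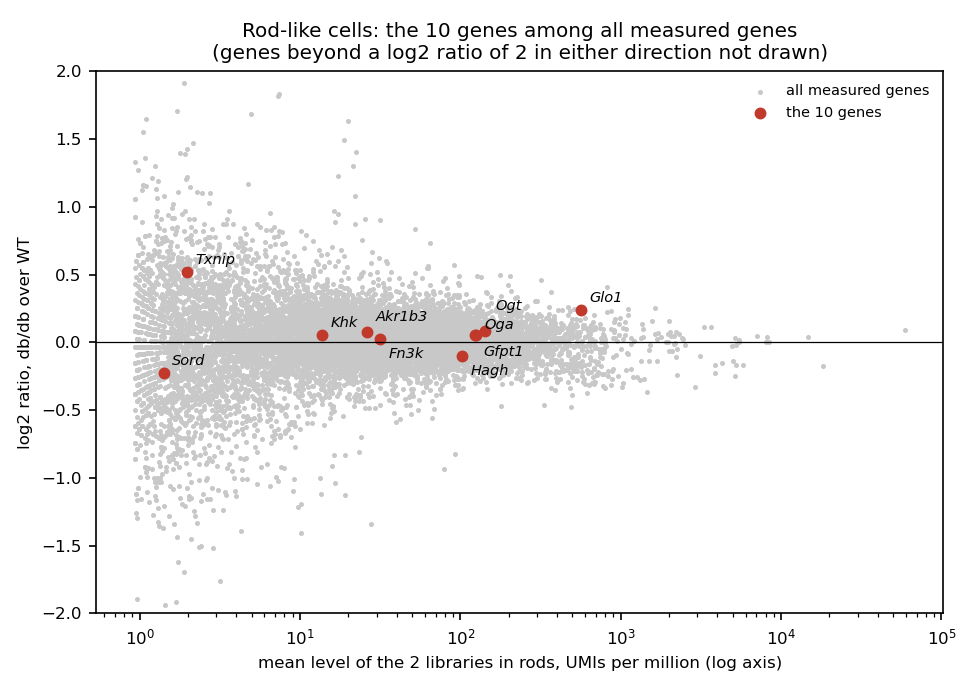
Log2 ratio of db/db over WT (vertical axis) against the mean level in rods (CPM, log axis) for every gene measured in rods (grey) and the 10 genes (red). Glo1, at 0.24, sits in the upper part of the cloud at its level, Txnip at 0.52 and Sord at -0.23 lie in the wide spread of sparse genes, and the other 7 lie between -0.10 and 0.08.

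The mitochondrial share of UMIs, a measure that shifts with the state of a cell and its RNA, differed between the rods of the libraries, with medians of 2.55% in db/db and 2.96% in WT. Rods with less than 2% made up 42.6% of db/db and 34.0% of WT rods, and those with 10 to 20% made up 6.97% and 4.37%. Within bands of that share the Glo1 log2 ratio was 0.29 (0.24 to 0.35) below 2%, 0.26 (0.20 to 0.31) at 2 to 5%, 0.19 (0.11 to 0.26) at 5 to 10% and 0.26 (0.09 to 0.42) at 10 to 20%. The Glo1 difference was thus present in every band, and the level itself stayed within 597 to 637 CPM in db/db and 487 to 542 CPM in WT. Other members followed the mitochondrial share in both libraries. From the lowest to the highest band, Ogt went from 167 to 73.3 CPM in db/db and from 164 to 62.4 CPM in WT. Gfpt1 had 145 CPM in the lowest and 88.8 CPM in the highest band of db/db rods, and 140 and 85.2 CPM in those of WT rods. Oga and Akr1b3 were lower toward the highest band as well, and Hagh ran the other way, from 84.7 to 128 CPM in db/db and from 88.2 to 153 CPM in WT.

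**Figure D3:**
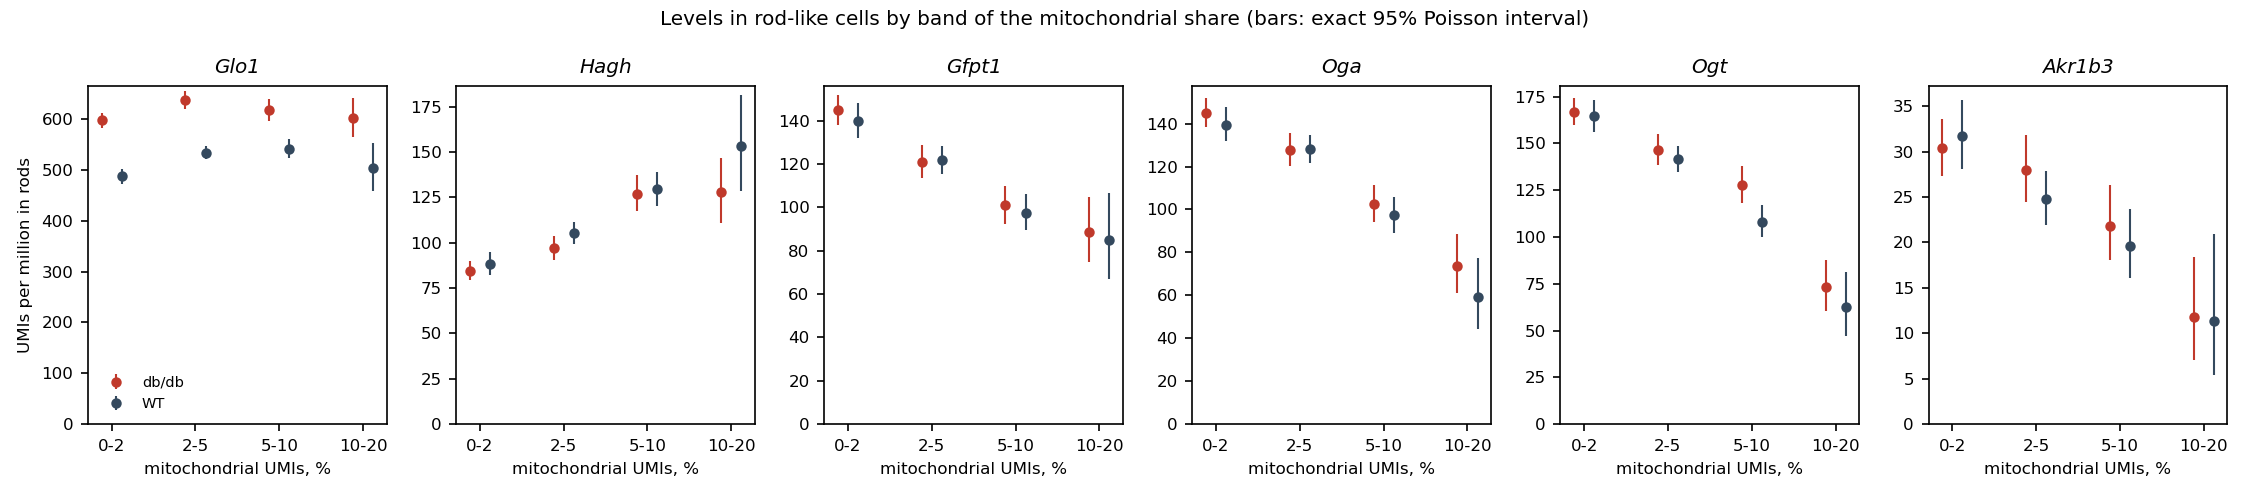
Level of 6 genes in rods (CPM, linear axes from 0) within 4 bands of the mitochondrial share of UMIs, db/db (red) left of WT (dark blue), with exact 95% Poisson intervals. Glo1 is higher in db/db in every band (597 against 487 CPM below 2%), while Ogt, Gfpt1, Oga and Akr1b3 go down and Hagh goes up across the bands in both libraries.

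Across classes Glo1 was ordered alike in both libraries. Cones stood 2.33-fold above rods in db/db and 2.38-fold in WT, and bipolar cells 1.31-fold and 1.41-fold above rods. Rod RNA was present in every class: the 11 rod markers summed to 12144 CPM in db/db and 13166 CPM in WT cones, 7389 and 8257 CPM in bipolar cells and 7983 and 8861 CPM in Muller glia, against 47676 and 50408 CPM in rods. Its part in the class levels was not tested. Rods and Muller glia did not differ beyond counting error, and amacrine cells followed at 328 CPM in db/db and 313 CPM in WT. Microglia or macrophages had the fewest among the neural, glial and microglial classes, with 145 CPM in db/db and 82.1 CPM in WT from 27 and 13 UMIs. In clusters named from the same markers, these cells were at 168 CPM in db/db and 172 CPM in WT, from 45 and 37 UMIs.

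The 3 measured genes to each side of Glo1 were read as well, a choice made after the Glo1 values were seen. On one side, Gm50240, a gene model that ends 2.34 kb from Glo1, had a log2 ratio of 0.20 (0.12 to 0.28) in rods, Btbd9, 8.45 kb away and overlapping Gm50240, 0.13 (0.05 to 0.20), and Zfand3, 374 kb away, 0.27 (-0.05 to 0.58). On the other side, Gm10503, 293 kb away, had 0.26 (0.10 to 0.42) and Abcg1, 431 kb away, 0.10 (0.04 to 0.16), while Wdr4, 867 kb away, had -0.12 (-0.36 to 0.12). So 4 of these 6 neighbours had an interval above 0 in rods, as did 20.6% of all genes measured there. In cones, bipolar cells and Muller glia the intervals of those measured included 0, at far fewer UMIs.

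Hagh (ENSMUSG00000024158; chromosome 17, 24840143 to 24864450, plus strand), which encodes glyoxalase 2, the enzyme that completes the detoxification Glo1 begins, was slightly lower in db/db rods. It had 2670 UMIs in db/db and 2802 in WT rods, or 99.1 and 106 CPM, a log2 ratio of -0.10 (-0.18 to -0.03), a difference of -6.89%. Within the 4 mitochondrial bands each interval included 0, with values from -0.26 to -0.03. The value was -0.14 (-0.41 to 0.13) in cones, -0.11 (-0.38 to 0.17) in bipolar cells and 0.04 (-0.60 to 0.66) in Muller glia. Hagh was thus on the lower side and Glo1 on the higher side in rods, cones and bipolar cells. In Muller glia the side of Hagh changed with the setting: 5 of 13 others were below 0, down to -1.13 in thinned cells. By class, Hagh was at 201 CPM in db/db and 216 CPM in WT bipolar cells, the highest mean of the 2 libraries. Amacrine cells, at 234 CPM in db/db (20 UMIs) and 178 CPM in WT (58 UMIs), did not differ from bipolar cells beyond counting error. Cones (159 and 175 CPM) came next and were above rods in both libraries. Fahd1, which had 1915 UMIs over both libraries, lies on the opposite strand within the bounds of Hagh; the use of strand in counting is not given in the sources used here, so the Hagh counts are uncertain to that extent.

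Fn3k (ENSMUSG00000025175; chromosome 11, 121434913 to 121450491, plus strand), fructosamine 3-kinase, removes early glycation products from proteins. It had 860 UMIs in db/db rods and 828 in WT rods, 31.9 and 31.5 CPM, a log2 ratio of 0.02 (-0.12 to 0.16). In cones it had 91 UMIs in db/db and 56 in WT, or 64.6 CPM (52.0 to 79.4) and 40.4 CPM (30.5 to 52.5), a log2 ratio of 0.68 (0.18 to 1.18). It was the one member past the limit in cones, where 11.7% of all measured genes were at least 25% higher. When cells were thinned to 1000 UMIs, 17 of 325 db/db and 18 of 330 WT cones held an Fn3k UMI, and the log2 ratio was 0.02. In bipolar cells the levels were 59.9 CPM in db/db and 53.2 CPM in WT. Neurons held more Fn3k than glia: Muller glia had 5 db/db and 6 WT UMIs, 11.4 and 8.08 CPM, and no Fn3k UMI was found in microglia or macrophages, which allows up to 16.2 CPM in db/db and 18.9 CPM in WT. Rods were above Muller glia 2.81-fold in db/db and 3.89-fold in WT, and the counting intervals left out equality.

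**Figure D4:**
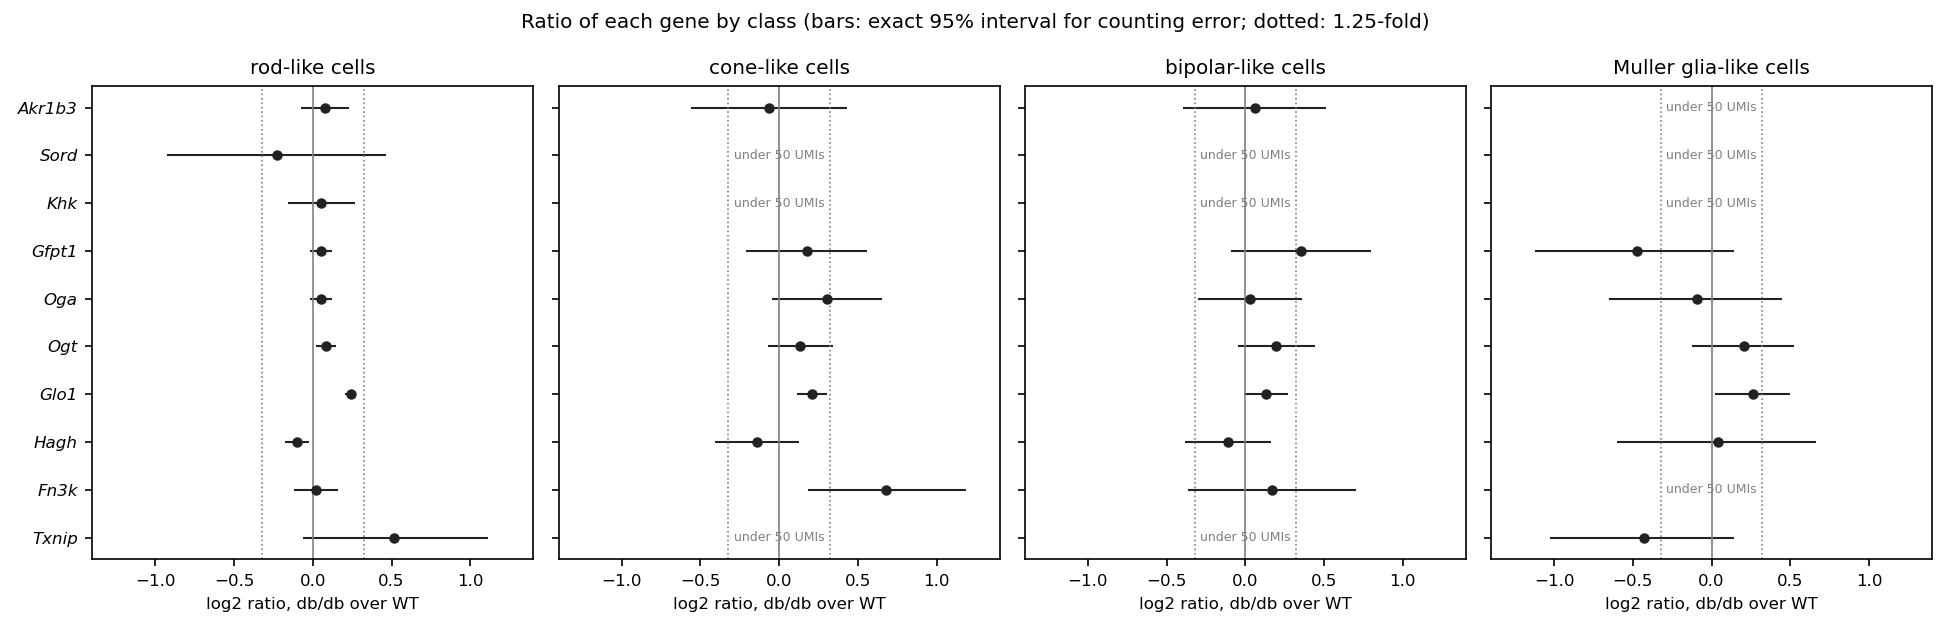
Log2 ratio of db/db over WT for each gene measured in rods, cones, bipolar cells and Muller glia, with exact 95% intervals for counting error; dotted lines mark 25% higher and 20% lower. Intervals leave out 0 for Glo1 in rods, cones and Muller glia, for Ogt (0.08) and Hagh (-0.10) in rods, and for Fn3k in cones (0.68).

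Txnip was found mainly in microglia or macrophages and in Muller glia, and hardly at all in neurons. Txnip (ENSMUSG00000038393; chromosome 3, 96557957 to 96561883, plus strand) encodes thioredoxin-interacting protein, an arrestin-like protein that binds thioredoxin and promotes the internalisation of glucose transporters. It is known for a carbohydrate response element in its promoter, a pair of E-box-like sites to which the glucose-sensing factors Mlxipl and Mlxip bind together with their partner Mlx. The 250 bases before its start are shown because they hold this element, in capitals (RefSeq, GRCm38.p6, chr3:96557707-96557956, plus strand).
Txnip promoter: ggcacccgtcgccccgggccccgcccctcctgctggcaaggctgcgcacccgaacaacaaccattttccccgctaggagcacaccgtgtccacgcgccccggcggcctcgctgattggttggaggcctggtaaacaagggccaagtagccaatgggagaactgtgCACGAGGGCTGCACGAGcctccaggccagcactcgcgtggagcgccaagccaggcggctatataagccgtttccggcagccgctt
The capitals, 85 to 69 bases before the start, match CACGNG, any 5 bases and CACGNG again, which was searched on both strands. The pair occurs in 16 of 32851 promoter windows of 300 bases (0.0487%), and among the 8 members with a window only in that of Txnip. The plain E-box CACGTG occurs in 7.15% of windows, and among the members only in that of Khk. A match describes these letters and does not show binding.

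Microglia or macrophages had the highest Txnip level, 37 UMIs in db/db and 22 in WT, or 199 CPM (140 to 275) and 139 CPM (87.1 to 210). With 42 and 43 cells, this class was below the minimum for a ratio between genotypes, and the intervals overlapped. Clusters named from the same markers held 61 db/db and 64 WT cells and gave 198 CPM (148 to 259) and 130 CPM (86.5 to 188). They come from the same libraries and are no independent measure. After thinning, 5 of 33 db/db and 6 of 34 WT microglia or macrophages held a Txnip UMI, 15.2% (5.11 to 31.9%) and 17.6% (6.76 to 34.5%). The unthinned medians were 4585 and 2191 UMIs. In db/db, 2 cells with at least 5 Txnip UMIs held 12 of the 37 UMIs. Muller glia followed with 37 UMIs in db/db and 84 in WT, or 84.1 CPM (59.2 to 116) and 113 CPM (90.3 to 140). Microglia or macrophages were above Muller glia beyond counting error in db/db, 2.37-fold, but not in WT, 1.23-fold. The 12 summed Muller glia markers stood at 7330 CPM in db/db and 2135 CPM in WT microglia or macrophages, against 32426 and 31172 CPM in Muller glia. Apoe, which macrophages also express, made up 6533 and 1434 CPM of the sum in microglia or macrophages. Gpr37 and Car14 were at 0 there in both libraries, and every other marker of the list had UMIs. The part of Muller glia RNA in the Txnip level was not tested.

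Photoreceptors and bipolar cells had almost no Txnip RNA. Rods gave 63 UMIs in db/db and 43 in WT, 2.34 CPM (1.80 to 2.99) and 1.63 CPM (1.18 to 2.20). Muller glia were 35.9-fold above rods in db/db and 69.3-fold in WT. Cones held 3 db/db and 2 WT UMIs and bipolar cells 1 and 2, and none were found in amacrine or erythroid cells. A count of 0 allows up to 35.1 CPM in db/db and 9.20 CPM in WT amacrine cells, and up to 9.55 and 29.3 CPM in erythroid cells. The share of cells with a Txnip UMI was 59 of 9502 db/db rods and 41 of 8303 WT rods, 0.621% and 0.494%, at medians of 1944 and 2210 UMIs. In Muller glia it was 15 of 121 and 25 of 185, 12.4% and 13.5%, at medians of 2453 and 3742 UMIs.

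Between the genotypes Txnip did not differ beyond counting error in either class where it was measured. The rod log2 ratio was 0.52 (-0.06 to 1.11), and 0.10 in thinned cells, where 0.229% of db/db and 0.224% of WT rods held a UMI. The Muller glia log2 ratio was -0.43 (-1.03 to 0.14). A few cells carried much of that count: 2 db/db cells with at least 5 Txnip UMIs held 18 of 37 UMIs, and 7 WT cells held 56 of 84. Those cells were picked by their own Txnip count after seeing the data, so the log2 ratio without them, 0.16, describes their weight and is no test. After thinning, 1 of 82 db/db and 9 of 142 WT Muller glia held a Txnip UMI, and the log2 ratio was -2.79. Muller glia with a Txnip UMI were also the deeper ones, with a median of 7367 UMIs in db/db and 6432 in WT, against 1626 and 2811 for those without. Txnip is also known from endothelial cells; the 9 markers of these were at a summed 1407 CPM in db/db Muller glia with a Txnip UMI and 1450 CPM in those without, and in WT at 1805 and 1619 CPM. Among these markers Cldn5, Cdh5, Ly6c1, Egfl7 and Tie1 were at 0 in the Muller glia of both libraries. Pecam1, Kdr, Flt1 and Esam had UMIs there, led by Kdr at 679 CPM in db/db and 883 CPM in WT. An endothelial part in the Txnip count was not tested. The endothelial gate itself passed 2 db/db cells and 1 WT cell, with 2 and 1 Txnip UMIs.

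**Figure D5:**
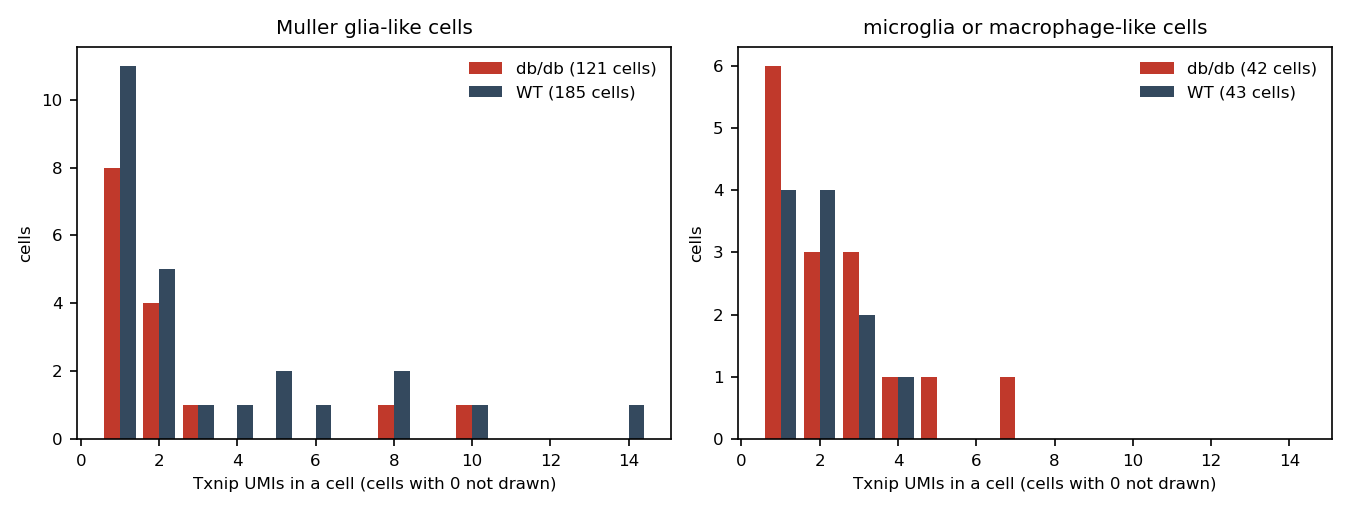
Number of cells (vertical axis) by their Txnip UMIs (horizontal axis, cells with 0 not drawn) in Muller glia and in microglia or macrophages, db/db (red) left of WT (dark blue). Most positive cells hold 1 or 2 UMIs, and the highest counts are 10 in a db/db and 14 in a WT Muller glia cell.

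The glucose-sensing factors were read in the same classes, a choice made after their values were seen. Mlxipl, also called ChREBP, is the one known from liver and fat. Mlxipl had 21 UMIs in db/db and 12 in WT microglia or macrophages, 113 and 75.8 CPM. In Muller glia it had 2 db/db UMIs and 0 in WT, where a count of 0 allows up to 4.04 CPM, and in rods 1 and 4 UMIs, 0.037 and 0.15 CPM. It was thus found mainly where Txnip was highest, and was near 0 in Muller glia, the class next in the order for Txnip. Mlxip, the relative also called MondoA, was at 26.9 CPM in db/db and 31.6 CPM in WT microglia or macrophages (5 UMIs each) and at 25.0 and 10.8 CPM in Muller glia (11 and 8 UMIs). In rods Mlxip was at 2.71 CPM in db/db and 2.47 CPM in WT (73 and 65 UMIs), so its levels were lowest in rods of the classes with a count above 0 in both libraries. Mlx, their shared partner, had no such gap, with 33.3 CPM in db/db and 37.0 CPM in WT rods and 18.2 and 24.3 CPM in Muller glia.

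Among 39 partner genes of the same routes, listed together with the members, rods had 30 measured, 11 higher and 19 lower in db/db, with a median log2 ratio of -0.03. A single partner was past the limit upward and 2 downward, against 7.29% and 6.97% of all genes. The counting interval lay above 0 for 3 of the 30 and below 0 for 8, against 20.6% and 14.4% of all measured genes. By role, 2 of 10 Txnip relatives and glucose-sensing factors were higher and 8 lower in db/db rods, 3 of 8 hexosamine genes were higher and 5 lower, and the polyol, glyoxal and glucose entry genes were each split 2 and 2. Of all genes measured in rods, 55.8% were on the higher side. Hk2, a hexokinase that traps glucose in photoreceptors, had 32593 UMIs in db/db rods and 26807 in WT rods, 1210 and 1019 CPM, a log2 ratio of 0.25 (0.23 to 0.27). That is close to the Glo1 value in the same cells. Park7, which has been described as a deglycase, was lower, with 6386 UMIs in db/db and 7648 in WT, a log2 ratio of -0.29 (-0.34 to -0.25). Slc2a3, a neuronal glucose transporter (50 and 90 UMIs, 1.86 and 3.42 CPM), was at -0.88 (-1.41 to -0.37). Eogt, which adds O-GlcNAc to extracellular proteins (77 and 115 UMIs, 2.86 and 4.37 CPM), was at -0.61 (-1.05 to -0.18). Both were sparse in rods beside bipolar cells, where Slc2a3 was at 79.8 CPM in db/db and 73.9 CPM in WT. Eogt was there at 12.6 and 11.9 CPM. The part of RNA from other classes in these rod counts was not tested. Hk2 and Park7 were within the fold limit, and Slc2a3 and Eogt were past it.

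In cones 15 partners were measured, 11 higher and 4 lower in db/db, 5 past the limit upward and 1 downward (11.7% and 10.3% of all genes), with a median of 0.19. Slc2a1, the main glucose transporter of retinal cells, had 98 UMIs in db/db and 62 in WT cones, a log2 ratio of 0.64 (0.16 to 1.12). Pnkd, a relative of glyoxalase 2, was at 0.62 (0.22 to 1.02), and Gnpda2, a glucosamine-6-phosphate deaminase that runs opposite to Gfpt1, at 0.60 (0.10 to 1.12). In bipolar cells 16 were measured, 9 higher and 7 lower, 1 past the limit upward and 2 downward (13.2% and 15.1% of all genes); Mlx was at 0.73 (0.02 to 1.44). In Muller glia 12 were measured, 3 higher and 9 lower, 1 past the limit upward and 2 downward (16.6% and 16.9%). There the Txnip relative Arrdc3 was at 0.44 (0.01 to 0.86), Gnpda2 at -1.22 (-2.15 to -0.39) and Haghl, a glyoxalase 2-like gene, at -0.92 (-1.87 to -0.06). Gnpda2 thus had opposite directions in cones and Muller glia, a difference that was not tested. The counting interval lay above 0 for 4 partners in cones, 1 in bipolar cells and 1 in Muller glia. The shares of all measured genes were 4.24%, 5.1% and 5.34%. The interval lay below 0 for 0, 0 and 2 partners in these classes, against 3.59%, 5.68% and 5.12% of all measured genes. Of all measured genes, 50.4% were on the higher side in cones, 48.1% in bipolar cells and 51.6% in Muller glia. The other settings were applied to the members only, so no partner ratio in any class was recomputed after thinning or with other gates. Among the members, Fn3k in cones went from 0.68 to 0.02 after thinning.

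The genes whose levels over classes ran most like each member were found over 8 profiles, the 4 compared classes in each library. Pearson's r was highest with Gsdme for Glo1 (0.991), Fmn1 for Hagh (0.998), Hspa12a for Akr1b3 (0.995) and Rpl21 for Fn3k (0.994). It was 0.976 for Ogt with Minar2, 0.978 for Khk with Hnrnpk, 0.985 for Oga with Enox1 and 0.967 for Gfpt1 with Clp1. Sord and Txnip were below the 500 UMIs required. Among the members, Akr1b3 and Hagh ran most alike (0.96), both highest in bipolar cells and cones, and Gfpt1 and Ogt ran most opposite (-0.80), the first highest and the second lowest in rods. With 8 profiles that share 2 libraries, such values describe the order of the classes only.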

How the data were processed

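The authors deposited raw UMI counts per gene and cell barcode, made with cellranger 6.0.1 per the file headers; the submitters' processing notes name Cell Ranger and the mm10 genome. The annotation release, cell calling and use of strand are not given in the sources used here. Cells with at least 200 genes and at most 20% mitochondrial UMIs were kept, which set aside 7 db/db and 1 WT barcodes by genes and 113 and 77 by mitochondrial share. A cell passed the gate of a class other than rod when its marker UMIs exceeded the library-wide share (Poisson tail 0.0001) with at least 3 distinct markers. It entered that class if its rod-marker share was below 0.5 of the library's. Rods were the cells that passed no other gate and had a rod-marker share of at least 0.5 of the library's. A cell passing several gates took the leading one only if it was 4 times the next. Cells mixed with rod (413 db/db, 592 WT), cells with several gates (69, 108) or none (116, 175) stayed out of the classes, and 157 db/db and 203 WT rods lay near the rod limit. No doublet caller was run.

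UMIs were summed per class and library. Ratios have exact conditional binomial (Clopper-Pearson) intervals, levels exact Poisson intervals, both at 95% and for counting error only; a count of 0 was set to 3 UMIs. The ratio was computed for all genes and tested on simulated data. Members, lists, markers and tests were chosen with earlier results of these data known, and gate settings after class sizes were seen. All 10 members are named; a partner is named if it is among the 3 highest or 3 lowest of a class and its interval leaves out 0. Likeness used log2 of CPM plus 1, over genes with at least 500 UMIs. Positions come from GENCODE M21 (32235 of 32285 genes matched by identifier). Promoters come from RefSeq; Akr1b3 and Fn3k had no entry. Python 3.11.15, numpy 2.4.6, scipy 1.17.1, pandas 2.3.3 and scanpy 1.11.5 were used.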

Additional observations from a re-analysis of the deposited data

How the results depend on the processing

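No paired analysis was possible because each genotype has 1 library and the comparison comes from no test. The 13 other settings and 2 chosen after seeing the data gave 385 values for 30 gene and class pairs; 369 stayed within the counting interval of the reported value and 15 moved beyond it. Of the values past the fold limit, 1 changed sign, Txnip in Muller glia, to 0.16 without cells with at least 5 Txnip UMIs, which were picked by that count. Values near 0 changed sign more often: in rods Gfpt1 was -0.05 and Oga -0.03 with equal weight per cell. Glo1 stayed higher in db/db throughout, from 0.09 to 0.37 over the 4 classes, and thinning, which keeps 1000 UMIs per cell, moved Txnip in Muller glia to -2.79. The number of members at least 25% higher or 20% lower in rods, 1 as reported, was 0 with a minimum of 200 UMIs, 2 with equal weight per cell and 0 after thinning. In cones, 1 as reported, it was 0 with 200 UMIs and 2 with a minimum of 10 UMIs, with equal weight, with at most 10% mitochondrial UMIs, with cluster classes and with rod RNA subtracted. It was 3 in cones without the 8% of cells with the most UMIs and with stricter gates, and the cone median was -0.19 after thinning. In bipolar cells, 1 as reported, it was 0 with 200 UMIs, 2 with 10 UMIs, 2 after thinning and 0 without the top 8%. In Muller glia, 2 as reported, it was 0 with 200 UMIs, 5 with 10 UMIs, 1 after thinning, 1 without the top 8% and 1 without cells with at least 5 Txnip UMIs. The causes were not tested, beyond the fewer or more genes that a UMI minimum admits. Scaling by the median ratio of all measured genes, which was 0.02 in rods, put Fn3k in rods at -0.0022 and kept the direction of the other 29 pairs.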
